A study of Mus musculus with 12 samples.

Results

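Integrin and laminin chains were followed as one gene family in RNA sequencing of cultured adult mouse astrocytes. The members were the protein-coding genes of the all-samples expression table whose symbols belong to the integrin α (Itga), integrin β (Itgb) or laminin (Lama, Lamb, Lamc) series. They numbered 37 of 54532 genes in the table, made up of 18 integrin α, 8 integrin β, 5 laminin α, 3 laminin β and 3 laminin γ genes. The study held 12 libraries in 6 groups of 2, set up as 3 experiments that each had their own control. All cells came from cortex and hippocampus of C57BL/6 mice, were freed with trypsin and papain, and were grown in astrocyte medium before RNA extraction.

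In the first experiment the mice were 4 months old, and the cells of the Ogt conditional knockout (Ogt cKO) were set against a cKO control. Ogt encodes the enzyme that adds O-GlcNAc to proteins. Both of these groups carry the same genotype label, Glast-CreERT2::Ogtfloxp/Y, in which an inducible Cre is driven from Glast (Slc1a3), and the sample titles and descriptions tell them apart. The induction of the Cre is not given in the sources used here. In the second experiment a 5X APP Alzheimer's mice model (AD model) was set against wild type mice (AD control), both labelled 6 months old, whereas the series text gives 5 months. In the third experiment, purified wild type astrocytes from mice of 2 months were exposed to 20 µM Aβ 1-42 for 72 h (Aβ treated; 73 h in the label of 1 library) and set against untreated cells (Aβ control). No label ties the 2 libraries of a group to different mice or dishes. The p-values therefore measure only the spread between these libraries, which may be technical.

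Integrins are surface receptors made of an α and a β chain, and the pairing decides what they bind. The β2 chain (Itgb2) pairs with Itgal, Itgam, Itgax or Itgad on leukocytes, where these receptors bind ICAMs and complement fragments; microglia are the main cells of healthy brain that carry them. The β1 chain (Itgb1) pairs with many α chains into receptors for fibronectin, collagens and laminins, and the αv chain (Itgav) pairs with Itgb3, Itgb5, Itgb6 or Itgb8 into receptors for vitronectin and latent TGF-β, of which αvβ8 and αvβ5 are known on astrocytes. Laminins are secreted trimers of an α, a β and a γ chain that form basement membranes, such as the one between astrocyte endfeet and brain vessels.

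The letters just before the start site are shown for 4 integrin genes, because Itgam and Itgax, the neighbouring leukocyte α genes, and Itga5 and Itgb1, the chains of the main fibronectin receptor, carry the leukocyte and matrix results below. The windows are the 150 bases before the RefSeq start on GRCm38.p6, written 5′ to 3′ on the gene's strand. Capitals mark a PU box (GAGGAA, the purine-rich motif of the myeloid factor PU.1, or its reverse complement TTCCTC) or an AP-1 site (TGANTCA). Itgam lies at chr7:128062490-128062639 on the plus strand, Itgax at chr7:128129400-128129549 on the plus strand, Itga5 at chr15:103366792-103366941 on the minus strand and Itgb1 at chr8:128685504-128685653 on the plus strand.
Itgam: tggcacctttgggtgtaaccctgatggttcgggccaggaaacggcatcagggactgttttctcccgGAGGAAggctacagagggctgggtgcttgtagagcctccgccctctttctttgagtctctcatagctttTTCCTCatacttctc
Itgax: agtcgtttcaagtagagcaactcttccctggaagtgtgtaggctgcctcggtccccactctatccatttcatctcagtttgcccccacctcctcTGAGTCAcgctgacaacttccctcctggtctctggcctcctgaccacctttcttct
Itga5: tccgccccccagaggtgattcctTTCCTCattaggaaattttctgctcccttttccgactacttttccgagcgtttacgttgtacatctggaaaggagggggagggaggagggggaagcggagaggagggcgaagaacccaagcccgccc
Itgb1: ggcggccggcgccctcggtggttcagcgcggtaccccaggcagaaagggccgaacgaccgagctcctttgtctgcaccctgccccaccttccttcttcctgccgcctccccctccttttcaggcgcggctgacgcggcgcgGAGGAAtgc

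Itgam held a PU box at -84 to -79 and its reverse complement at -15 to -10, counted from the start site. Itgax held no PU box and had an AP-1 site at -56 to -50, Itga5 had the reversed PU box at -127 to -122, and Itgb1 had a PU box at -9 to -4. Promoter windows were matched for 23 of the 37 members, some with more than 1 start, giving 26 windows. A PU box on either strand was found in 10 of these 26 windows, and in 14.5% of 32851 mouse promoter windows of the same length. An AP-1 site was found in 1 of 26, against 4.24% of all windows. A match is a description of the letters, not a site or a cause, and no match says only that these letters are not in this window. Members with no matched window included Itga6, Itga7, Itgad, Itgae, Itgal, Itgb2, Itgb3, Itgb4, Lama1, Lama3, Lama4, Lamc1 and Lamc3. Several members are neighbours in the genome: 11.056 kb separates Itgam from Itgax on chromosome 7 and 3.719 kb separates Itgax from Itgad. On chromosome 13, 20.996 kb separates Itga2 from Itga1, with no protein-coding gene between them.

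The unit is FPKM, a fragment count divided by the length of the gene and by a library size, so levels can be compared between genes. That size was not the plain read total: recovered reads were 0.886 to 1.10 of it. The libraries held between 16418852 and 18705309 gene-assigned reads, and 3 reads on a gene of 1 kb corresponded to 0.145 to 0.191 FPKM. Ogt itself, counted over the whole gene and so not limited to the deleted exons, was at 20.8 and 24.7 FPKM in the cKO control libraries and at 11 and 12 in the Ogt cKO libraries. The Aβ control libraries, with no Ogt deletion in their label, had 7.85 and 10.4. The astrocyte markers summed to 76.7 to 472 FPKM over the libraries, with Gfap between 29.1 and 298, Slc1a3 between 2.42 and 24.6 and Aqp4 between 1.47 and 26.4. Markers of other cells were also present. The 16 microglia and macrophage markers summed to 1178 to 9457 FPKM and the 10 pericyte and smooth muscle markers to 210 to 4104. The 6 fibroblast markers summed to 278 to 1870 and the 10 endothelial markers to 43.3 to 1061, whereas the neuronal marker Snap25 stayed at or under 0.0375. The 2 AD control libraries stood apart from each other in several members, for instance Itga5 at 410 and 100 FPKM, and counts without each of them are given below.

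Of the 37 members, 30 reached 1 FPKM in at least 2 libraries and were tested. The other 7 were Itga2b, Itgb7, Itgae, Itgad, Itgb6, Lama3 and Lamb3, chains of platelets, leukocytes and epithelia. Itga2b (0.331 to 0.809 FPKM) and Itgb7 (0.0184 to 0.889) were the highest of them, and Itgad had at most 4 reads in any library. Itgb1 was the most abundant member, at 392 to 1302 FPKM, followed by Itga5 at 34.5 to 410 and Itgb5 at 68.5 to 264.

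In Ogt cKO cells, the chains of the main fibronectin receptor, Itga5 and Itgb1, were higher together with Itgb3, Itgb4 and 4 laminin chains, whereas Itga7, Itgb8 and Lamb2 were lower. In AD model cells, 3 leukocyte chains were higher, and 9 chains of collagen, laminin, vitronectin and tenascin receptors and of laminins were lower. In Aβ treated cells, 4 leukocyte chains, Itgav, Itgb8 and Lama4 were higher, and 8 matrix chains were lower. Changes are differences of log2(FPKM + 1) between group means, which understates changes of low genes, tested with limma on all genes.

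In numbers, 11 of the 30 tested members passed an adjusted p of 0.05 in the Ogt cKO comparison, 8 higher and 3 lower, where 42.3% of all 14014 tested genes did so (22.6% higher, 19.8% lower). The members called made up 36.7% of those tested, a share near the background. In the AD comparison 12 members passed, 3 higher and 9 lower, which is 40% against a background of 17.1% (9.8% higher, 7.27% lower). In the Aβ comparison 15 members passed, 7 higher and 8 lower, which is 50% against 35.9% (20.8% higher, 15.1% lower). The median log2 change over the members was 0.19, -0.39 and 0.08 in the Ogt cKO, AD and Aβ comparisons, beside -0.00, -0.02 and -0.04 over all tested genes. The Ogt cKO median depended on scaling. Rescaling the libraries to their total reads shifted the median of all genes by -0.19 and put that of the members at -0.04. It took the share of higher genes among all called genes from 53.3% to 35.5%, and the members called from 8 higher and 3 lower to 7 higher and 6 lower.

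Itga7 and Lamb2 were lower in each of the 3 comparisons, 8 members were called in 2 comparisons, 16 in 1, and 4 (Itga2, Itga3, Itga6 and Lamc1) in none. Itgb1 and Lamc3 were higher in Ogt cKO cells and lower in Aβ treated cells, and Itgb8 was lower in Ogt cKO cells and higher in Aβ treated cells. Leaving out 1 library left 3 to 6 members called in the Ogt cKO comparison, 10 to 14 in the AD comparison and 9 to 13 in the Aβ comparison. The Ogt cKO comparison kept 6 calls when cKO control replicate 1 was left out, 3 without the other control library and 5 without either Ogt cKO library. The Aβ comparison kept 9 without Aβ treated replicate 1, and the AD comparison had 10 calls without AD control replicate 1 and 14 without AD control replicate 2. In the Ogt cKO and Aβ fits with 1 library left out, a smaller share of all genes was called too. Fitted on the 4 AD libraries alone, the AD comparison kept 2 of its 12 calls, Itgam and Itga8, so the other 10 rest on a spread shared with the other experiments. In that fit 1.98% of all genes were called.

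**Figure D1:**
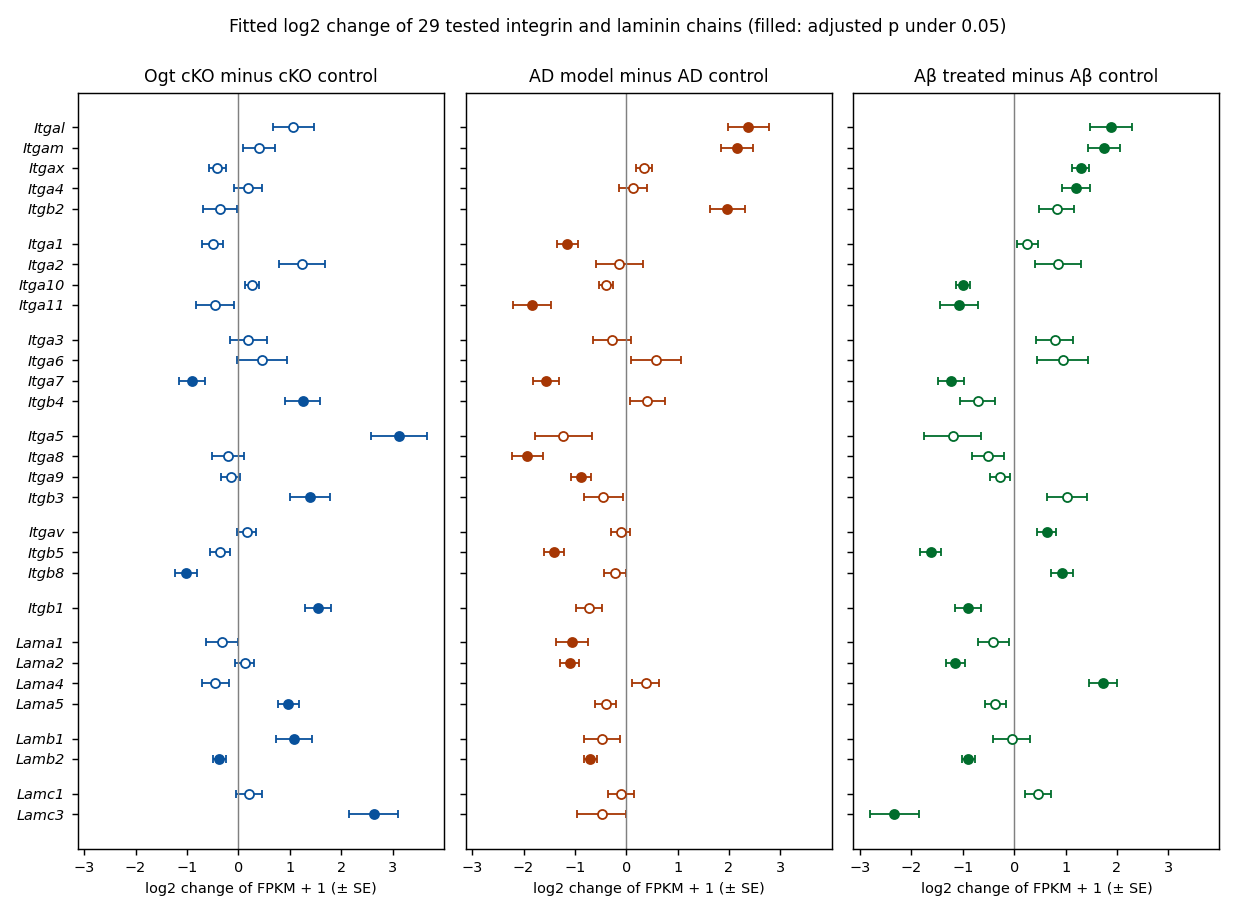
Fitted difference of log2(FPKM + 1) for 29 of the 30 tested members (points; bars are ± 1 SE from limma) in the Ogt cKO, AD and Aβ comparisons, ordered as leukocyte, collagen-binding, laminin-binding, fibronectin and tenascin, αv and β1 integrins, then laminin α, β and γ chains; filled points passed an adjusted p of 0.05. The leukocyte chains at the top are filled on the right of 0 in the AD (3 of 5) and Aβ (4 of 5) comparisons and open in the Ogt cKO comparison, where Itga5 reaches 3.12.

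Of the 5 leukocyte integrin chains tested, 3 were higher in the AD model, 4 were higher in Aβ treated cells and none was called in Ogt cKO cells. Itgam, the α chain of complement receptor 3 (CD11b), was at 2.06 and 1.82 FPKM in the AD control and at 14.7 and 9.91 in the AD model. Aβ control libraries had 2.35 and 4.95, and Aβ treated libraries 17.1 and 11.5. In both experiments every library of the treated or model group was above every control library. The mean was 6.33-fold higher in the AD model (12.3 ± 3.37 against 1.94 ± 0.168 FPKM, SD, n = 2; log2 change 2.15 ± 0.31 SE, limma adjusted p = 0.002) and 3.92-fold higher in Aβ treated cells (log2 change 1.75 ± 0.31, adjusted p = 0.0029). Both calls held under every alternative run. In the Ogt cKO experiment Itgam was at 5.10 and 3.45 in control and at 6.64 and 5.17 in Ogt cKO libraries. These did not overlap and missed the threshold (log2 change 0.40, adjusted p = 0.32).

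Itgb2, the shared β chain (CD18), was at 14.7 and 17.5 FPKM in AD control and at 46.1 and 93.4 in AD model libraries. The groups did not overlap, although the AD model libraries were themselves far apart, and the log2 change was 1.97 ± 0.34 (adjusted p = 0.0045). Its Aβ libraries were at 29.98 and 42.5 against 75.0 and 54.9, which did not overlap but missed the threshold (log2 change 0.83, adjusted p = 0.084). In the Ogt cKO experiment they overlapped, at 49.9 and 44.6 in control and 44.8 and 29.7 in Ogt cKO cells (adjusted p = 0.40).

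Itgal, the α chain of LFA-1 (CD11a), was at 1.38 and 0.310 FPKM in AD control and at 5.92 and 11.2 in AD model libraries, a 10.1-fold higher mean (log2 change 2.38 ± 0.40, adjusted p = 0.0042). Aβ control libraries had 0.477 and 0.403, and Aβ treated libraries 5.91 and 3.08 (10.2-fold, log2 change 1.88 ± 0.40, adjusted p = 0.0069). Ogt cKO libraries had 3.37 and 3.02 against 1.65 and 0.502 in their control, which did not overlap and missed the threshold (log2 change 1.07, adjusted p = 0.058). Without Aβ treated replicate 1 the Aβ call was lost (log2 change 1.5, adjusted p = 0.059).

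Itgax, the α chain of complement receptor 4 (CD11c), and Itga4, which pairs with Itgb1 or Itgb7 to bind VCAM-1, were called in the Aβ comparison alone. Itgax was at 0.480 and 0.479 FPKM in Aβ control and at 2.46 and 2.80 in Aβ treated libraries, 5.48-fold higher (log2 change 1.29 ± 0.16, adjusted p = 0.00053). The Itgax call held under every alternative in which the gene was tested, but Itgax was too low for the filter of 5 FPKM. Its AD libraries were at 1.01 and 0.710 against 1.13 and 1.60 (adjusted p = 0.20), and its Ogt cKO libraries at 0.529 and 0.324 against 1.02 and 0.767 in control (adjusted p = 0.070). Itga4 was at 0.520 and 0.408 in Aβ control and at 2.57 and 2.17 in Aβ treated libraries, 5.11-fold higher (log2 change 1.20 ± 0.28, adjusted p = 0.0096), a call lost without Aβ treated replicate 1 (adjusted p = 0.063). The level of both genes was low, with 25 to 240 reads for Itgax and 64 to 609 for Itga4 per library.

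Most macrophage and microglia markers that were called in the AD and Aβ comparisons moved with these chains. Of the 16 markers, 12 were higher and none lower in the AD model, and 7 were higher and 2 (Tmem119 and Cx3cr1) lower in Aβ treated cells. None was higher and 7 were lower in Ogt cKO cells. That was 75%, 56.25% and 43.75% called, beside 17.1%, 35.9% and 42.3% of all tested genes, so the Ogt cKO share was near the background. In the AD comparison Tmem119, Cx3cr1, P2ry12 and C1qc were not called. Their summed level was 1178 to 1720 FPKM in AD control and 3877 to 6562 in AD model libraries. It was 2397 to 3982 in Aβ control, 5134 to 6891 in Aβ treated, 7452 to 9457 in cKO control and 3205 to 4266 in Ogt cKO libraries, and no marker was at 0 in every library. Adgre1 (F4/80) was at 11.1 and 12 FPKM in AD control and at 146 and 379 in AD model libraries, and at 11.4 and 19.8 against 236 and 119 in the Aβ experiment. In bulk RNA, fewer cells of a type and less RNA per cell cannot be told apart, and the part of these cells in the integrin values was not tested.

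Csf1r, the receptor that microglia need, fell in the Ogt cKO experiment, in which no leukocyte chain was called. It was at 117 and 101 FPKM in cKO control and at 34.8 and 25.0 in Ogt cKO libraries (log2 change -1.84, adjusted p = 0.0031). The ratio of Itgam to Csf1r was 0.0437 and 0.0344 in control and 0.191 and 0.207 in Ogt cKO libraries. That of Itgb2 to Csf1r was 0.427 and 0.444 against 1.29 and 1.19. The ratio of Itgam to Csf1r was also above that of its control in AD model (0.435 and 0.244 against 0.110 and 0.122) and Aβ treated libraries (0.311 and 0.384 against 0.0883 and 0.130). Against Ptprc (CD45), which all leukocytes carry, the ratio went the other way in the Aβ experiment, at 3.28 and 4.23 in treated and 10.7 and 15.4 in control libraries. It overlapped in the AD experiment (3.69 and 1.67 against 2.24 and 2.12) and was higher in Ogt cKO libraries (13.8 and 11.97 against 3.39 and 3.01). Ptprc itself was at 0.919 and 0.859 FPKM in AD control and 3.98 and 5.94 in AD model libraries, and at 0.220 and 0.321 against 5.22 and 2.71 in the Aβ experiment. Of the 8 neutrophil markers only S100a8 was high enough to test and Retnlg was at 0 in every library. S100a8 was higher in each comparison, with means of up to 10.5 FPKM in Aβ treated cells. Of the 8 T and NK cell markers only Lck was tested. Lck was called higher in the AD model (log2 change 0.61) and in Aβ treated cells (1.13) but not in Ogt cKO cells. The 8 markers summed to at most 2.16 FPKM in any library. Cd3g and Ncr1 were at 0 in every library, and Cd3e had at most 0.0141 FPKM. The platelet chemokine Pf4, which macrophages also make, was at 18.7 and 8.78 FPKM in Aβ control and at 171 and 162 in Aβ treated libraries, while Itga2b, the platelet integrin chain, stayed under 1 FPKM in every library.

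**Figure D2:**
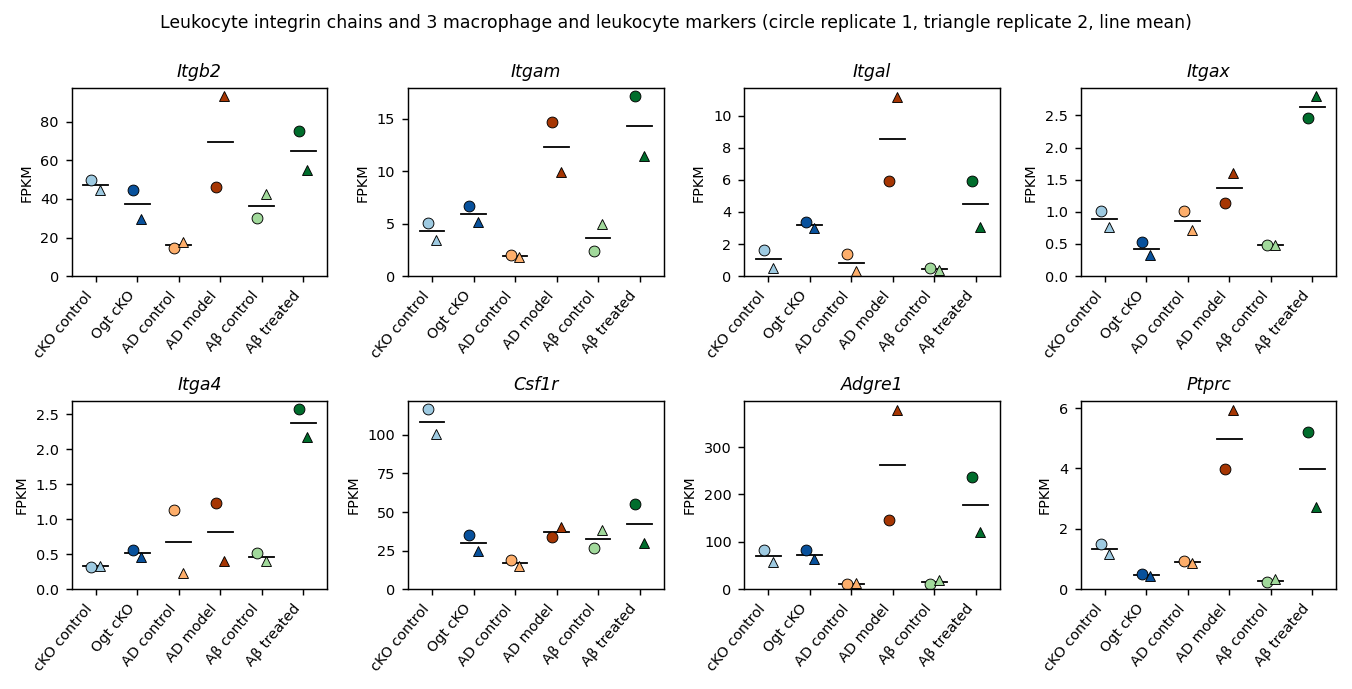
FPKM of 5 leukocyte integrin chains and of the markers Csf1r, Adgre1 and Ptprc in the 12 libraries (circles replicate 1, triangles replicate 2, lines the mean of the 2), each panel on its own linear axis from 0. Itgam lies between 9.91 and 17.1 in the AD model and Aβ treated libraries and at or below 6.64 in the other 8, whereas Csf1r is highest in the cKO control libraries.

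Among the receptors for fibronectin and related RGD or tenascin ligands, Itga5 and Itgb3 rose in Ogt cKO cells and Itga8 and Itga9 fell in the AD model. Itga5, the α chain of the main fibronectin receptor, was at 49.1 and 34.5 FPKM in cKO control and at 352 and 381 in Ogt cKO libraries. The mean was 8.76-fold higher (log2 change 3.12 ± 0.55, adjusted p = 0.0041), and the call held under every alternative run. The cKO control was the low group of the study: Aβ control libraries were at 333 and 237 and AD control replicate 1 at 410, so that the Ogt cKO level lay within the range of untreated cells of the other experiments. AD control replicate 2 was at 100, the AD model libraries at 111 and 66.7 and the Aβ treated libraries at 114 and 130. Neither the AD (log2 change -1.23, adjusted p = 0.18) nor the Aβ difference (log2 change -1.20, adjusted p = 0.12) passed the threshold, although Aβ treated and control libraries did not overlap. The AD result rested on AD control replicate 2, without which the log2 change was -2.24 and called (adjusted p = 0.0051).

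Itgb1, its β partner, was at 484 and 393 FPKM in cKO control and at 1256 and 1302 in Ogt cKO libraries, 2.92-fold higher (log2 change 1.55 ± 0.26, adjusted p = 0.0034) under every alternative run. Aβ control libraries had 753 and 1143 and Aβ treated libraries 487 and 510, a 1.90-fold lower mean (log2 change -0.89 ± 0.26, adjusted p = 0.025). That fall was lost without Aβ control replicate 2 (log2 change -0.59, adjusted p = 0.15), without Aβ treated replicate 1 (adjusted p = 0.12) and without Aβ treated replicate 2 (adjusted p = 0.086). The AD libraries, at 875 and 616 against 498 and 392, did not overlap and missed the threshold (log2 change -0.73, adjusted p = 0.090), which they passed without AD control replicate 2 (log2 change -0.98, adjusted p = 0.047).

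Itgb3, the β chain of the vitronectin receptor, was at 6.26 and 4.63 FPKM in cKO control and at 15.9 and 15.6 in Ogt cKO libraries (log2 change 1.39 ± 0.39, adjusted p = 0.021). The call was lost when any 1 of the 4 libraries of that experiment was left out, with adjusted p between 0.053 (cKO control replicate 1) and 0.12 (cKO control replicate 2). Its Aβ libraries were at 18.1 and 10.8 against 26.2 and 33.1 (log2 change 1.02, adjusted p = 0.069), and its AD libraries overlapped at 24.4 and 12.2 against 17.8 and 8.66. Itga8, whose product binds nephronectin, was at 3.53 and 4.84 in AD control and at 0.514 and 0.209 in AD model libraries. This was an 11.6-fold lower mean (log2 change -1.93 ± 0.31, adjusted p = 0.0033). It was called under every alternative in which Itga8 was tested, and Itga8 was too low for the filter of 5 FPKM. Itga9, a tenascin-C receptor chain, was at 5.61 and 4.92 against 2.76 and 2.08 (log2 change -0.88 ± 0.19, adjusted p = 0.014). The call was lost without AD control replicate 1 (adjusted p = 0.059) and without AD model replicate 2 (adjusted p = 0.064). A pseudogene, Gm10157, lies within Itga9 on the other strand and reached 3.64 FPKM, and whether the counting used strand is not given in the sources used here.

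Several mural cell and mesothelial markers were higher in Ogt cKO cells, as were Itga5 and Itgb1. Of 8 tested pericyte and smooth muscle markers, 5 were higher in Ogt cKO cells, 6 lower in the AD model and 7 lower in Aβ treated cells. Their called shares were 62.5%, 75% and 87.5%, beside 42.3%, 17.1% and 35.9% of all tested genes. Pdgfrb, Rgs5 and Myh11 were not called in Ogt cKO cells. Pdgfrb had means of 79.0 and 21.3 FPKM in AD control and AD model, and 74.5 and 12.5 in Aβ control and treated cells. In the Ogt cKO experiment most of the level of the list was Acta2, with means of 645 FPKM in control and 3594 in Ogt cKO cells. The list summed to 505 to 1011 FPKM in cKO control and 4028 to 4076 in Ogt cKO libraries. It summed to 1720 to 3843 in AD control, 210 to 759 in AD model, 3602 to 4104 in Aβ control and 421 to 488 in Aβ treated libraries. Msln, a mesothelial marker, was at 0.427 and 0.115 FPKM in cKO control and 83.9 and 76.6 in Ogt cKO libraries, and at 49.1 and 97.2 in Aβ control and 5.08 and 6.20 in Aβ treated libraries. Of the 9 mesothelial and epithelial markers, Msln and Krt19 were tested, and both were higher in Ogt cKO and lower in Aβ treated cells. Neither was called in the AD comparison, and nor were Itga5 and Itgb1. The list summed to 0.491 to 1.92 FPKM in cKO control and 154 to 168 in Ogt cKO libraries. It summed to 7.09 to 15.3 in AD control, 7.03 to 16.0 in AD model, 130 to 199 in Aβ control and 15.6 to 19.1 in Aβ treated libraries. No marker of these lists was at 0 in every library. The 5 libraries with the highest pericyte and smooth muscle sums (3602 FPKM or more) were also the 5 with the highest Itga5 (237 FPKM or more). They were both Ogt cKO libraries, both Aβ control libraries and AD control replicate 1. Because they follow the groups, they are not 5 independent observations. In the AD comparison 6 pericyte and smooth muscle markers were lower, whereas Itga5 and Itgb1 were not called. The part of these cells in the Itga5 and Itgb1 values was not tested.

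The αv receptors known on astrocytes did not move as a set. Itgb5 was at 233 and 262 FPKM in AD control and at 79.2 and 107 in AD model libraries, 2.65-fold lower (log2 change -1.41 ± 0.20, adjusted p = 0.0017). Its Aβ control libraries were at 264 and 212 and its treated libraries at 83.6 and 68.5, 3.12-fold lower (log2 change -1.63 ± 0.20, adjusted p = 0.00045) under every alternative run. Both groups were clear of their controls. The Ogt cKO libraries, at 197 and 163 against 240 and 221, did not overlap either but missed the threshold (log2 change -0.36, adjusted p = 0.17). That result depended on scaling: Itgb5 was called lower in Ogt cKO cells under quantile normalization (log2 change -1.01, adjusted p = 0.013). It was also called after rescaling to total reads (-0.61, adjusted p = 0.038) and with voom (-0.61, adjusted p = 0.04). Itgb8, whose receptor activates latent TGF-β at astrocyte endfeet, was at 1.53 and 2.23 in cKO control and at 0.466 and 0.366 in Ogt cKO libraries, 4.52-fold lower (log2 change -1.01 ± 0.21, adjusted p = 0.0075). Aβ control libraries had 0.294 and 0.198 and Aβ treated libraries 1.90 and 0.952, 5.80-fold higher (log2 change 0.93 ± 0.21, adjusted p = 0.0096). The AD libraries, at 3.47 and 4.45 in control and 3.55 and 2.91 in the model, overlapped and were not called (limma adjusted p = 0.54). Without cKO control replicate 2 the first of these calls was lost (adjusted p = 0.065), and without Aβ treated replicate 1 the second (adjusted p = 0.073).

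Itgav, the common α chain, stayed between 13.1 and 28.3 FPKM over the 12 libraries. It was at 13.1 and 16.7 in Aβ control and at 24.6 and 22.5 in Aβ treated libraries (1.58-fold, log2 change 0.63 ± 0.19, adjusted p = 0.027). The call was lost without Aβ control replicate 1 (adjusted p = 0.18), Aβ treated replicate 1 (0.13) and Aβ treated replicate 2 (0.072). Its Ogt cKO and AD differences were 0.16 and -0.11 on the log2 scale (adjusted p = 0.50 and 0.75). Astrocyte markers differed between the same groups: of 9 markers, 6 were lower in Ogt cKO cells, 2 lower in the AD model, and 2 higher and 1 lower in Aβ treated cells. Called shares were 66.7%, 22.2% and 33.3%, beside 42.3%, 17.1% and 35.9% of all tested genes, so the AD and Aβ shares were near the background. The 9 markers summed to 417 to 472 FPKM in cKO control and 93.0 to 106 in Ogt cKO libraries. They summed to 370 to 450 in AD control, 227 to 246 in AD model, 109 to 116 in Aβ control and 76.7 to 164 in Aβ treated libraries, and no marker was at 0 in every library. Slc1a3 was at 22.4 and 24.6 in cKO control and at 2.58 and 2.45 in Ogt cKO libraries, the direction of Itgb8, and the part of astrocyte number in these values was not tested.

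**Figure D3:**
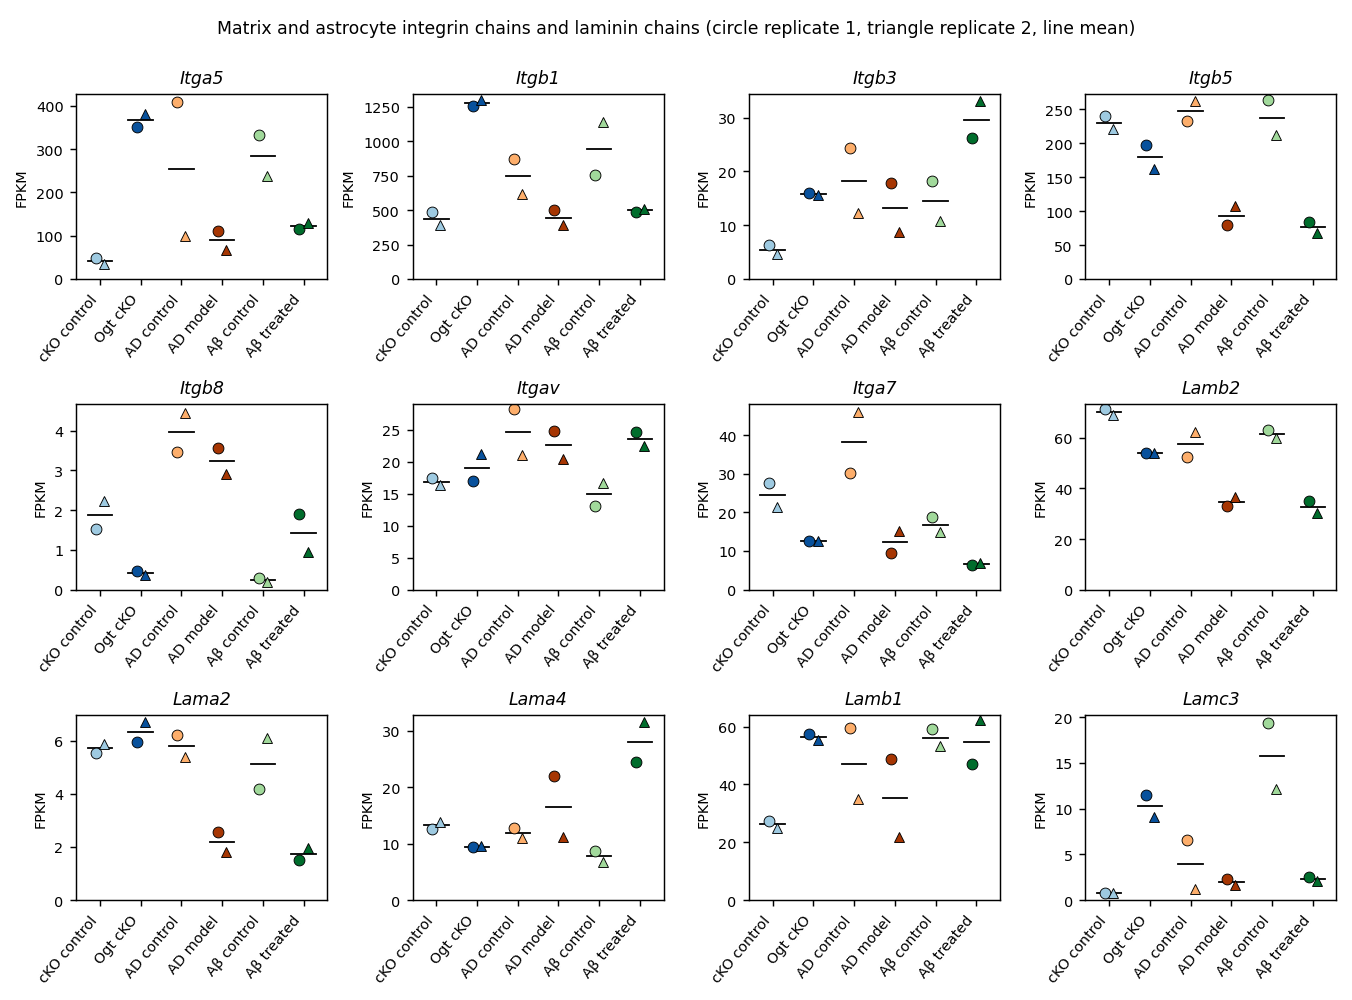
FPKM of 7 matrix and astrocyte integrin chains and 5 laminin chains in the 12 libraries (circles replicate 1, triangles replicate 2, lines the mean of the 2), each panel on its own linear axis from 0. Itga5 and Itgb1 are high in Ogt cKO libraries, Itgb5 lies at or below 107 in AD model and Aβ treated libraries against 163 or more in the other 8, and Lamc3 is at 19.4 and 12.2 in Aβ control.

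Of the 4 collagen-binding α chains, 2 fell in the AD model, 2 fell in Aβ treated cells and none was called in Ogt cKO cells. Itga11, a fibrillar collagen receptor of mesenchymal cells, was at 9.84 and 4.36 FPKM in AD control and at 1.94 and 0.567 in AD model libraries (5.66-fold lower, log2 change -1.83 ± 0.37, adjusted p = 0.0097). Its Aβ libraries were at 5.28 and 3.23 against 1.52 and 1.37 (log2 change -1.08 ± 0.37, adjusted p = 0.048). The Aβ call of Itga11 was lost when any 1 of the 4 libraries was left out, with adjusted p from 0.057 without Aβ control replicate 2 to 0.26 without Aβ control replicate 1. Itga1, a collagen IV receptor chain, was at 6.74 and 6.32 in AD control and at 3.03 and 1.85 in AD model libraries (log2 change -1.15 ± 0.20, adjusted p = 0.0052). In the other experiments Itga1 was at 3.17 and 2.16 against 1.55 and 1.59 (Ogt cKO, adjusted p = 0.074) and at 1.45 and 1.83 against 2.48 and 1.85 (Aβ, adjusted p = 0.34). The gene Pelo lies within Itga1 on the same strand and reached 7.14 FPKM, so reads of the 2 genes may be mixed. Itga10, a chain of cartilage, was at 1.61 and 1.55 in Aβ control and at 0.319 and 0.281 in Aβ treated libraries. Its mean was 5.28-fold lower (log2 change -0.99 ± 0.14, adjusted p = 0.00085), called under every alternative in which Itga10 was tested. Itga10 was too low for the filter of 5 FPKM. Itga2, another collagen receptor chain, was called in none. It was at 0.461 and 0.693 in cKO control and at 2.36 and 3.08 in Ogt cKO libraries, which did not overlap (4.71-fold, log2 change 1.23, adjusted p = 0.052). Quantile normalization (adjusted p = 0.043), the libraries of that comparison alone (0.0035) and the replicate block (0.0011) each took it past the threshold. Its Aβ libraries did not overlap either, at 0.854 and 1.13 against 2.4 and 2.75 (adjusted p = 0.17). Of the 6 fibroblast markers, all of them tested, 4 were lower in the AD model, 3 lower and 1 higher in Aβ treated cells and none called in Ogt cKO cells. As shares, 66.7%, 66.7% and 0% were called, beside 17.1%, 35.9% and 42.3% of all tested genes. The list summed to 928 to 1870 FPKM in AD control and 338 to 744 in AD model libraries. It summed to 767 to 985 in Aβ control, 278 to 472 in Aβ treated, 735 to 859 in cKO control and 1159 to 1184 in Ogt cKO libraries, no marker was at 0 in every library, and their part in these values was not tested.

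Among the laminin-binding integrins, Itga7 was lower in each comparison. Itga7, the laminin receptor chain of muscle that is also found on astrocytes and mural cells, was at 27.5 and 21.3 FPKM in cKO control and at 12.6 and 12.5 in Ogt cKO libraries. It was at 30.2 and 46.0 in AD control and at 9.5 and 15.2 in AD model libraries, and at 18.7 and 14.8 against 6.33 and 6.80 in the Aβ experiment. No treated, model or knockout library overlapped its controls, and the means were 1.95-fold, 3.09-fold and 2.55-fold lower (log2 changes -0.90, -1.55 and -1.22, each ± 0.25; adjusted p = 0.021, 0.0036 and 0.0059). The Ogt cKO call was lost when any 1 of the 4 libraries was left out (adjusted p from 0.055 without cKO control replicate 2 to 0.12 for the other control library). The Aβ call was lost without Aβ control replicate 1 (adjusted p = 0.052).

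Itgb4, the β chain of epithelial laminin receptors, was at 0.257 and 0.346 FPKM in cKO control and at 2.58 and 1.68 in Ogt cKO libraries, 7.07-fold higher (log2 change 1.25 ± 0.34, adjusted p = 0.018). It was lost without cKO control replicate 1 (adjusted p = 0.079), cKO control replicate 2 (0.080) and Ogt cKO replicate 1 (0.11). In Aβ control libraries Itgb4 was at 2.89 and 5.38 FPKM, above both Ogt cKO libraries, and in Aβ treated libraries at 2.70 and 1.51. Its AD libraries overlapped, at 0.708 and 0.247 in control and 1.53 and 0.478 in the model. Itga3 and Itga6, the abundant laminin-binding α chains, were called in no comparison. Itga3 was at 52.4 and 72.1 FPKM in Aβ treated and at 37.5 and 33.0 in Aβ control libraries (adjusted p = 0.12), and between 13.6 and 29.4 in the other 8. Itga6 was at 20.9 and 20.6 in Aβ treated and at 8.0 and 13.2 in Aβ control libraries (adjusted p = 0.16). For both genes the groups did not overlap, and both genes were highest in Aβ treated cells.

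Among the laminin α chains, Lama2 fell and Lama4 rose in the Aβ experiment. Lama2, the chain of muscle, glial and perivascular basement membranes, was at 4.18 and 6.10 FPKM in Aβ control and at 1.53 and 1.95 in Aβ treated libraries (2.95-fold lower, log2 change -1.15 ± 0.19, adjusted p = 0.0019). Lama4, the endothelial and mural chain, was at 8.66 and 6.82 against 24.5 and 31.6 (3.63-fold higher, log2 change 1.73 ± 0.27, adjusted p = 0.0015). Both calls held under every alternative run. Lama2 was also lower in the AD model, at 2.57 and 1.80 against 6.24 and 5.39 in control (log2 change -1.11 ± 0.19, adjusted p = 0.0042), whereas Lama4 there overlapped, at 21.9 and 11.2 against 12.8 and 10.98 (adjusted p = 0.40; called without AD model replicate 2, log2 change 0.83, adjusted p = 0.024). In Ogt cKO cells Lama2 was at 5.94 and 6.73 against 5.55 and 5.88 (adjusted p = 0.61) and Lama4 at 9.35 and 9.51 against 12.7 and 13.8 (adjusted p = 0.20). Endothelial markers moved with Lama4 in the Aβ comparison: 7 of 10 were higher there, 8 in Ogt cKO cells and none in the AD model. These were 70%, 80% and 0%, beside 35.9%, 42.3% and 17.1% of all tested genes called. The 10 markers summed to 276 to 343 FPKM in Aβ control and 773 to 1061 in Aβ treated libraries. They summed to 43.3 to 53.5 in cKO control, 275 to 287 in Ogt cKO, 89.0 to 221 in AD control and 118 to 433 in AD model libraries, with no marker at 0 in every library, and their part in the Lama4 values was not tested.

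Lama5, the other chain of vessel basement membranes, rose in Ogt cKO cells, from 9.04 and 6.39 FPKM in control to 15.1 and 16.6 (2.05-fold, log2 change 0.97 ± 0.20, adjusted p = 0.0075). The call was lost without cKO control replicate 2 (adjusted p = 0.066) and Ogt cKO replicate 2 (0.050), and the Ogt cKO level was close to that of the Aβ control (16.5 and 17.3). In Aβ treated libraries Lama5 was at 11.7 and 14.2 (log2 change -0.36, limma adjusted p = 0.19). In the AD experiment Lama5 was at 18.7 and 12.9 in control and 12.6 and 10.6 in model libraries (adjusted p = 0.24). Lama1, the embryonic chain, was at 3.25 and 2.15 in AD control and at 0.917 and 0.596 in AD model libraries (log2 change -1.06 ± 0.31, adjusted p = 0.046). The call was lost when any 1 of the 4 libraries was left out (adjusted p from 0.055 without AD control replicate 2 to 0.16 without AD control replicate 1). Lama3, an epithelial chain, reached at most 0.220 FPKM.

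The main β chains of the laminins changed in opposite directions in Ogt cKO cells and came to similar levels. Lamb2, the chain of mature vessel and synaptic laminins, was at 71.4 and 69.0 FPKM in cKO control and at 54.2 and 53.9 in Ogt cKO libraries, while Lamb1 was at 27.2 and 25.1 and at 57.4 and 55.2. The log2 changes were -0.37 ± 0.13 for Lamb2 (adjusted p = 0.046) and 1.08 ± 0.35 for Lamb1 (adjusted p = 0.036). The ratio of Lamb1 to Lamb2 was 0.382 and 0.363 in control and 1.06 and 1.02 in Ogt cKO libraries. Both Ogt cKO calls were lost when any 1 of the 4 libraries was left out. The adjusted p was then from 0.15 to 0.17 for Lamb2 and from 0.10 to 0.15 for Lamb1. Rescaling to total reads also ended the Lamb1 call (log2 change 0.84, adjusted p = 0.063). Lamb2 was lower in the AD model too (33.2 and 36.5 against 52.4 and 62.5; log2 change -0.70 ± 0.13, adjusted p = 0.0064). It was at 63.2 and 60.1 in Aβ control and 35.1 and 30.3 in Aβ treated libraries (log2 change -0.90 ± 0.13, adjusted p = 0.0011), where the call held under every alternative run. Lamb1 was not called there, at 59.4 and 35.0 against 48.9 and 21.7 in the AD experiment and 59.2 and 53.2 against 47.1 and 62.2 in the Aβ experiment, and each pair of groups overlapped. Without AD model replicate 1 the AD change of Lamb1 was -1.04 and called (adjusted p = 0.043).

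Of the γ chains, Lamc1, the common one, was at 40.3 to 70.9 FPKM over the 12 libraries and was called in no comparison. Lamc3, a minor γ chain, was at 0.810 and 0.820 in cKO control and at 11.5 and 9.09 in Ogt cKO libraries, 12.7-fold higher (log2 change 2.63 ± 0.48, adjusted p = 0.0045) under every alternative run. Aβ control libraries had 19.4 and 12.2 and Aβ treated libraries 2.47 and 2.06, 6.96-fold lower (log2 change -2.33 ± 0.48, adjusted p = 0.0056), a call lost without Aβ control replicate 1 (adjusted p = 0.052). The AD control libraries stood far apart in Lamc3, at 6.62 and 1.19, and the AD model libraries were at 2.28 and 1.63 (log2 change -0.48, adjusted p = 0.57). Without AD control replicate 2 that change was -1.38 and called (adjusted p = 0.014). As with Itga5, the cKO control was low in Lamc3 beside the Aβ control.

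The make-up of each chain class was described by the share of a gene in the summed FPKM of its class. Itga5 made up 31.6% and 29.7% of the α integrin FPKM in cKO control libraries, 79.8% and 80.2% in Ogt cKO, 77.0% and 44.4% in AD control, 49.6% and 44.6% in AD model, 77.7% and 71.0% in Aβ control and 44.3% and 46.2% in Aβ treated libraries. Itgb1 made up 59.0% to 86.1% of the β integrin FPKM, and Itgb2 between 1.28% in AD control replicate 1 and 15.4% in AD model replicate 2. Among the laminin α genes, Lama2 held 13.3% and 19.6% in Aβ control and 3.98% and 4.00% in Aβ treated libraries, and Lama4 held 27.4% and 21.9% against 63.8% and 64.8%. Lama5 held the largest share in Aβ control, at 52.2% and 55.6%, and 30.4% and 29.1% in Aβ treated libraries. Lamc3 held 1.80% and 1.82% of the γ chain FPKM in cKO control and 27.8% and 20.8% in Aβ control libraries. Shares of a class move together by construction, so they add no test to the values above.

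**Figure D4:**
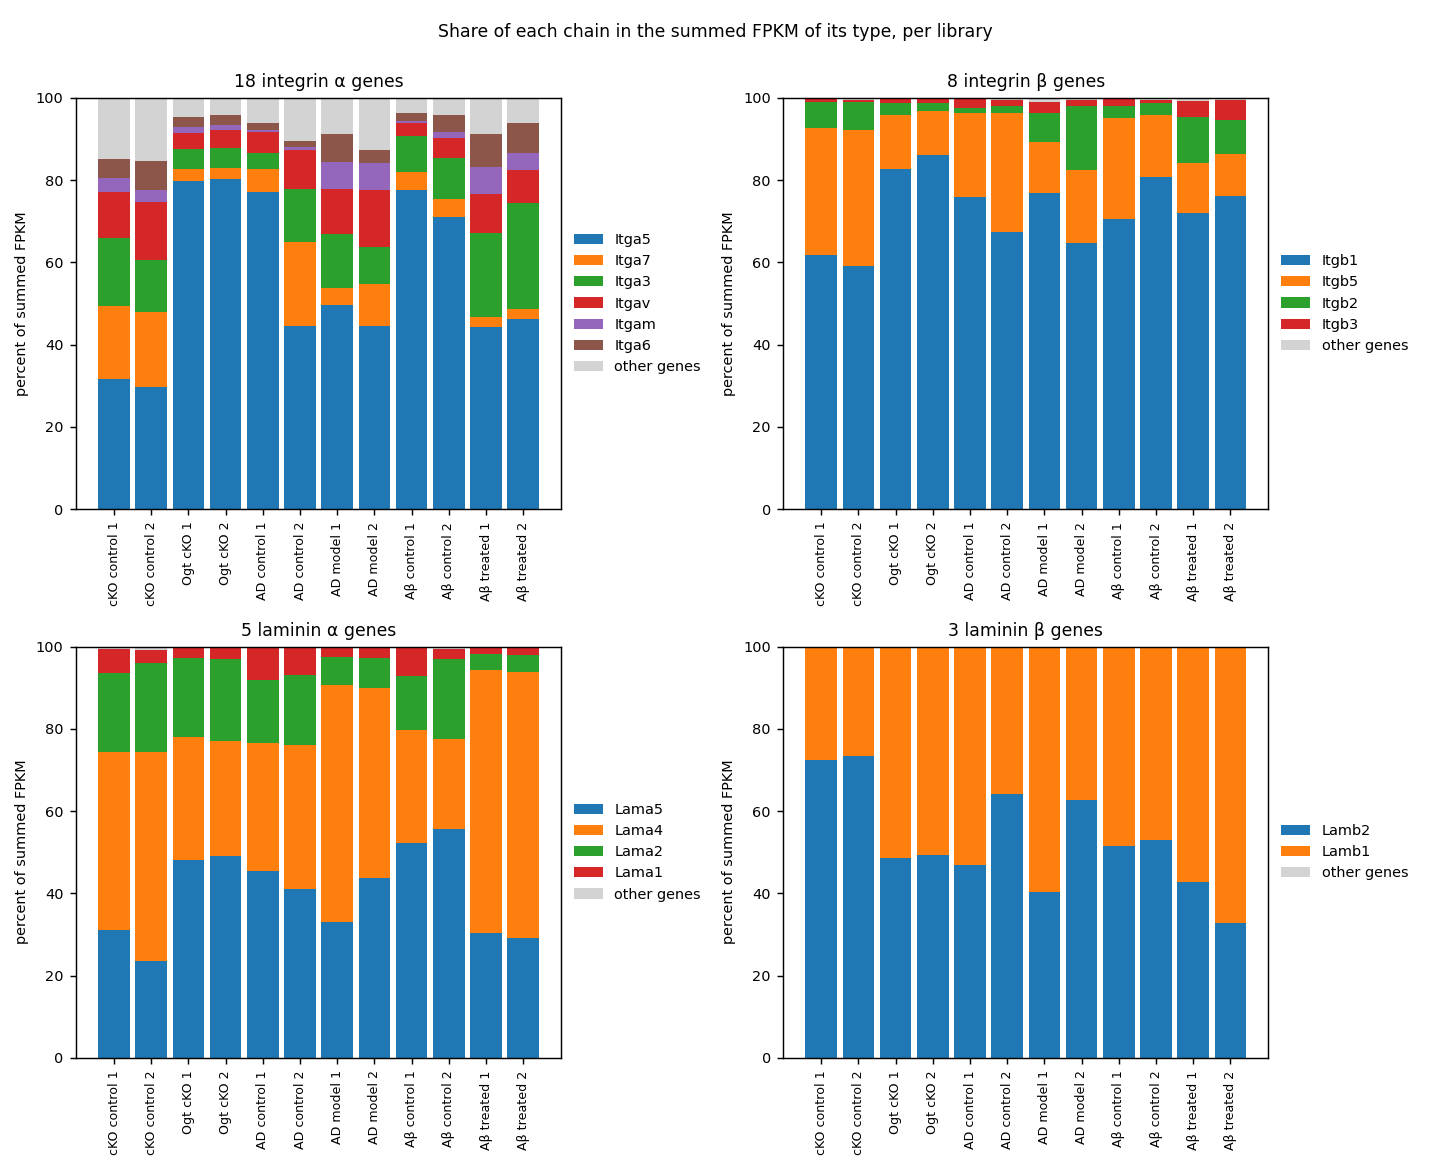
Share of each gene in the summed FPKM of the 18 integrin α, 8 integrin β, 5 laminin α and 3 laminin β genes, in percent (stacked bars, 1 per library; grey is the remaining genes of the class). Itga5 fills 79.8% and 80.2% of the α integrin bar in the Ogt cKO libraries and 31.6% and 29.7% in their control, and Lama4 fills 63.8% and 64.8% of the laminin α bar in the Aβ treated libraries.

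The genes that work with integrins and laminins were described by lists. Of 30 adaptors and activators of integrins, 28 were tested. Of these, 13 were higher and 3 lower in Ogt cKO cells, 4 higher and 6 lower in the AD model, and 4 higher and 8 lower in Aβ treated cells, with median log2 changes of 0.43, -0.04 and -0.27. The called shares were 57.1%, 35.7% and 42.9%, beside 42.3%, 17.1% and 35.9% of all tested genes. Zyx, a focal adhesion protein, had a mean of 74.0 FPKM in cKO control and 250 in Ogt cKO cells (log2 change 1.75, adjusted p = 0.0063). Ptk2 (focal adhesion kinase) had 7.16 and 18.4 (1.26, adjusted p = 0.0049), and Bcar1, a docking protein of focal adhesions, 25.2 and 67.4 (1.38, adjusted p = 0.0021). Zyx and Ptk2 were lower in Aβ treated cells (log2 changes -1.56 and -0.77, adjusted p = 0.0088 and 0.031). Fermt3 (kindlin-3), the activator of leukocyte integrins, was higher in the AD model (6.58 against 29.9; log2 change 2.03, adjusted p = 0.0011) and in Aβ treated cells (log2 change 1.22, adjusted p = 0.0067), the comparisons in which Itgam was higher. Lims2 and Tns1, both focal adhesion proteins, were lower in the AD model (33.4 against 6.76 and 41.2 against 6.53 FPKM), and Lims2 also in Aβ treated cells (29.4 against 17.1). Lims1 and Rap1a, a small GTPase that activates integrins, were higher in Aβ treated cells (11.3 against 30.3 FPKM for Lims1 and 11.3 against 27.8 for Rap1a, control against treated). Tln2, a talin, was lower in each comparison (log2 changes -0.61, -0.79 and -0.81; adjusted p = 0.016, 0.0090 and 0.0045).

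Of 19 integrin ligands, 16 were tested: 9 were higher and 2 lower in Ogt cKO cells, 2 higher and 6 lower in the AD model, and 4 higher and 4 lower in Aβ treated cells, with median log2 changes of 0.89, -0.67 and -0.51. That was 68.8%, 50% and 50% of those tested, beside 42.3%, 17.1% and 35.9% of all tested genes. Icam1 and Vcam1, cell-surface ligands of leukocyte integrins, were higher in each comparison. Icam1, the ligand of the β2 integrins, was at 7.24 and 6.44 FPKM in cKO control and 63.5 and 71.6 in Ogt cKO libraries (adjusted p = 0.0012). It was at 7.79 and 3.22 against 29.1 and 58.8 in the AD experiment and at 21.0 and 19.6 against 77.0 and 55.4 in the Aβ experiment (adjusted p = 0.0014 and 0.0096). Vcam1, the ligand of the Itga4 receptors, had log2 changes of 2.84, 2.35 and 2.70 (adjusted p = 0.00068, 0.00083 and 0.00023). Among the soluble ligands, Fbln5 (fibulin-5) was lower in each comparison, with means of 35.3 and 12.7 FPKM in cKO control and Ogt cKO, 27.8 and 3.22 in AD control and AD model, and 11.6 and 1.84 in Aβ control and treated cells. Vtn (vitronectin) was lower in Ogt cKO cells (12.1 against 1.30, control against knockout) and in the AD model (22.7 against 2.28). Tgfb3 was lower in the AD model (104 against 15.5) and in Aβ treated cells (57.5 against 10.0). Fn1 (fibronectin), the ligand of the Itga5 receptor, was at 472 and 469 in cKO control and at 890 and 863 in Ogt cKO libraries (log2 change 0.90, adjusted p = 0.037).

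All 14 basement membrane partners and other laminin receptors were tested, and 3 were higher and 4 lower in Ogt cKO cells, 1 higher and 6 lower in the AD model, and 2 higher and 3 lower in Aβ treated cells, with median log2 changes of -0.24, -0.77 and -0.19. The called shares were 50%, 50% and 35.7%, beside 42.3%, 17.1% and 35.9% of all tested genes, so the Aβ share was that of the background. Agrn (agrin), a heparan sulfate proteoglycan of vessel basement membranes, was at 51.5 and 54.8 FPKM in cKO control and 27.3 and 27.1 in Ogt cKO libraries (adjusted p = 0.0022). It was higher in the AD model (81.2 and 99.3 against 47.3 and 49.0) and in Aβ treated cells (61.1 and 71.8 against 30.4 and 27.6), with adjusted p of 0.0028 and 0.00038. Dag1 (dystroglycan), the laminin receptor of astrocyte endfeet, was lower in each comparison (log2 changes -0.59, -0.97 and -1.25; adjusted p = 0.028, 0.0063 and 0.0010), the direction of Itga7 and Lamb2. Sgcb, which belongs to the dystroglycan complex, was lower in Ogt cKO cells (26.8 against 9.30), Ntn4 and Sparc were lower in the AD model (70.2 against 24.0 and 2027 against 853; Ntn4 also in Aβ treated cells, 37.6 against 22.5), and Utrn was higher in Aβ treated cells (3.43 against 8.29).

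The 3 experiments were compared by testing the difference of their effects. Of the 30 members, 13 differed between the AD and Ogt cKO effects, 3 higher and 10 lower in the AD experiment, against 25.6% of all genes (11.9% higher, 13.7% lower). Itga5 differed most (difference of log2 effects -4.35 ± 0.78, adjusted p = 0.0059). Itgb1 (difference -2.28 ± 0.36, adjusted p = 0.0039) and Itgb2 (difference 2.33 ± 0.48, adjusted p = 0.010) were, with Itga5, the 3 called under every alternative run. Of these 13 calls, 5 were left without either Ogt cKO library and 7 without either cKO control library.

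Between the Ogt cKO and Aβ effects, 13 members differed, 9 higher and 4 lower in the Ogt cKO experiment, which is 43.3% of members against 52.3% of all genes (25.7% higher, 26.6% lower). Lamc3 had the largest of these differences (4.96 ± 0.67, adjusted p = 0.00068), followed by Itga5 (4.32 ± 0.78, adjusted p = 0.0023) and Itgb1 (2.44 ± 0.36, adjusted p = 0.0010). Itgax (-1.70 ± 0.23, adjusted p = 0.00066), Itgb8 (-1.95 ± 0.30, adjusted p = 0.0012) and Lama4 (-2.18 ± 0.38, adjusted p = 0.0019) were lower in the Ogt cKO effect. These 6 were among the 10 called under every alternative in which they were tested. The AD and Aβ effects differed in 2 members, Itga1 (difference -1.41 ± 0.29, adjusted p = 0.026) and Itgax (-0.95 ± 0.23, adjusted p = 0.046), against 6.14% of all genes (1.52% higher, 4.62% lower). Neither held without AD control replicate 2, Aβ control replicate 1 or Aβ treated replicate 1, each of which left none of the 2. Itga1 was also lost without Aβ treated replicate 2 (adjusted p = 0.054), and Itgax without AD control replicate 1, AD model replicate 1 or the other Aβ libraries (adjusted p from 0.064 to 0.13). A difference that missed the threshold does not show that the AD and Aβ effects were alike.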

How the data were processed

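Bulk RNA was sequenced from 12 libraries in 6 groups of 2. Libraries were made with standard Illumina protocols, per the labels. The authors deposited 1 table of FPKM per gene and library with Ensembl identifiers, gene biotype and coordinates. The build is mm10, per the submitters' processing notes; for the aligner, counter, annotation release and strand setting, nothing is given in the sources used here. FPKM multiplied by gene length gave whole reads for 100% of values within 0.1 read. The total of these recovered reads was 0.886 to 1.10 of the library size behind the FPKM. Median-of-ratios factors computed from the FPKM were 1.011 in every library, so the deposited values were already balanced by that measure. Rescaling to total recovered reads takes that balance away. Groups were taken from the sample descriptions.

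The filter, 1 FPKM or more in 2 or more libraries, left 14014 genes. limma 3.58.1 (R 4.3.3) modelled log2(FPKM + 1) by a mean for each group, with the 12 libraries in a joint fit (6 residual and 2.92 prior degrees of freedom) and a variance trend on intensity. Tests were two-sided, and p-values were adjusted by Benjamini-Hochberg across those 14014 genes, with a threshold of 0.05. A permutation test of 2 against 2 libraries cannot go below 0.3333, so none was run. Differences between experiments were contrasts of their effects in the same fit. The script was tested on simulated data. The values of 1 member are not reported here, although it is part of every count. Promoters came from RefSeq (GRCm38.p6). Python 3.11.15, pandas 2.3.3 and matplotlib 3.10.9 were also used.

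The members and gene lists were chosen with earlier results of these data known, so lists are described by counts and medians with no set test. Counts of chain classes and marker lists stand beside the share of all tested genes called. That share was 42.3% in the Ogt cKO, 17.1% in the AD and 35.9% in the Aβ comparison. Members past the threshold in a comparison or a difference of effects, or among the 3 most abundant of their class, were eligible for values per library. Many of them are given only for some of the experiments, mainly those in which they were called, and some only by a range or not at all. From the other lists, up to 3 genes per list and comparison with the lowest p and a mean of at least 5 FPKM were eligible to be named. So were the defining cell type markers, of which Pecam1, Col1a1 and Mog are not shown. Fn1, Icam1, Fermt3 in the Aβ comparison and Dag1 in the AD comparison were named after their values were seen where they fall outside that rule. Also given outside that rule were Zyx, Ptk2, Lims2 and Ntn4 in the Aβ comparison and Vtn in the AD comparison. The same holds for Tln2 in the Ogt cKO and AD comparisons and Fbln5 in the Ogt cKO comparison. Alternatives were pseudocounts of 0.1 and 0.5, no filter, a filter of 5 FPKM, median-of-ratios and quantile scaling, and rescaling to total recovered reads. Others were voom on the recovered reads, a replicate block, the libraries of a comparison alone, and each library left out. Where leaving out a library left a group with 1 library, it was assumed to vary like the other groups. Median-of-ratios scaling divided every library by the same factor, 1.011, so it could only repeat the main fit almost exactly. A call gains no support from having held under it. Members too low for the filter of 5 FPKM, such as Itgax, Itga8 and Itga10, were not tested under it. Oligodendrocyte markers were also listed: 0 of 7 were higher and 4 lower in Ogt cKO cells, 5 and 7 of 7 higher in the AD model and Aβ treated cells.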

Additional observations from a re-analysis of the deposited data

Results flagged for a closer look

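The effects of the 3 experiments on a member differed in 28 cases by a test of the difference itself (limma, contrast of 2 effects on the log2 scale, adjusted p under 0.05 over all genes). Because these are contrasts of separate experiments with separate controls, mouse ages and culture conditions, what sets them apart cannot be told apart from the experiment.

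The AD effect was below the Ogt cKO effect for the following members, with the difference in parentheses: Itga5 (-4.35), Lamc3 (-3.11), Itgb1 (-2.28), Itgb3 (-1.83), Itga8 (-1.73), Lamb1 (-1.55), Lama5 (-1.36), Lama2 (-1.23), Itgb5 (-1.05) and Itga10 (-0.65). It was above the Ogt cKO effect for the leukocyte chains Itgb2 (2.33), Itgam (1.75) and Itgax (0.75). The Itgb5 difference also depended on scaling, at -0.51 under quantile normalization (adjusted p = 0.30), -0.78 after rescaling to total reads (adjusted p = 0.074) and -0.79 with voom (adjusted p = 0.077). The Lamb1 difference was lost in 12 of 18 alternatives, with adjusted p of 0.086, 0.071 and 0.067 under those 3. The AD effect was below the Aβ effect for Itga1 (-1.41) and for Itgax (-0.95).

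The Ogt cKO effect was above the Aβ effect for Lamc3 (4.96), Itga5 (4.32), Itgb1 (2.44), Itgb4 (1.96), Lama5 (1.33), Lama2 (1.28), Itgb5 (1.27), Itga10 (1.26) and Lamb2 (0.53). It was below the Aβ effect for Lama4 (-2.18), Itgb8 (-1.95), Itgax (-1.70) and Itgam (-1.35). The Itgb5 and Lamb2 differences between Ogt cKO and Aβ depended on scaling: under quantile normalization they were 0.36 (adjusted p = 0.40) and 0.06 (adjusted p = 0.84).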

How the results depend on the processing

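No called change of a member reversed under any alternative. Of the 30 Ogt cKO changes, 18 were above 0, but 14 after rescaling to total reads and 14 with voom, so some members not called turned sign. Leaving out 1 library gave 3 to 6 members called for Ogt cKO, 10 to 14 for AD, 9 to 13 for Aβ, 5 to 17 for AD against Ogt cKO, 0 to 3 for AD against Aβ and 11 to 13 for Ogt cKO against Aβ. The share of all genes called is given in parentheses below. Without the filter on low values, which tests 30418 genes, the counts were 6 for Ogt cKO (16.1%), 6 for AD against Ogt cKO (8.54%) and 0 for AD against Aβ (1.78%). With the libraries of a comparison alone they were 18 for Ogt cKO (62.1%), 2 for AD (1.98%), 7 for AD against Ogt cKO (14.8%) and 0 for AD against Aβ (0.649%). A filter of 5 FPKM (5.87%) and quantile normalization (5.17%) each gave 1 for AD against Aβ. On the recovered reads, voom gave 13 for Ogt cKO (45.7%), 12 for AD (16.4%) and 15 for Aβ (33.5%). The cause was not tested beyond the genes and libraries each setting leaves. Calls that held under every alternative in which the gene was tested numbered 3 of 11 for Ogt cKO (Itga5, Itgb1, Lamc3) and 2 of 12 for AD (Itgam, Itga8). For Aβ they numbered 7 of 15 (Itgam, Itgax, Itga10, Itgb5, Lama2, Lama4, Lamb2). They numbered 3 of 13 for AD against Ogt cKO, 0 of 2 for AD against Aβ and 10 of 13 for Ogt cKO against Aβ. Same-numbered libraries share only a number in the labels, and the correlation of their deviations over 14014 genes was 0.03, 0.55 and -0.17 in the Ogt cKO, AD and Aβ experiments. With the replicate block the counts were 13, 15 and 21 in those comparisons and 14, 5 and 18 for AD against Ogt cKO, AD against Aβ and Ogt cKO against Aβ. The shares of all genes called were then 48.4%, 21.8%, 43.5%, 34.6%, 9.08% and 57.7%. With the pairing of the Aβ treated libraries crossed, an alternative chosen after seeing the data, the replicate block gave 13, 16, 22, 19, 9 and 18. The shares of all genes were then 52.5%, 25.3%, 47.9%, 38.9%, 13.7% and 60.5%. The 7 untested members had 0 to 91 reads a library, from 0 to 4 for Itgad to 29 to 91 for Itga2b, and no difference was tested in them.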
